A study of Mus musculus with 6 samples.

Results

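The 9 peptide hormone genes Cck, Sct, Gip, Gcg, Pyy, Nts, Ghrl, Sst and Tac1, together with the granule gene Chga, were followed in crypt epithelium of the mouse jejunum with and without Sox9. A probe set belonged to a gene when the platform annotation gave that gene's symbol and no other. This placed 11 probe sets on the 10 genes, out of 45037 probe sets and 18193 genes on the array, and each gene had 1 probe set among the 18108 that were tested. The samples were 3 Sox9 deficient mice (KO 1 to KO 3) and 3 wild type littermate controls (WT 1 to WT 3), all C57BL/6 and all 3 months old, with total RNA of each mouse on its own biotin-labelled Affymetrix array. How Sox9 was removed, with which driver and in which cells, and how mutants and controls pair by litter, is not stated in the sources used here.

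Enteroendocrine cells are scattered secretory cells of the gut epithelium that arise from crypt stem cells, pass through a stage marked by the transcription factor Neurog3, and release hormones from dense-core granules in response to nutrients. Classical names assign cholecystokinin to I cells, secretin to S cells, GIP to K cells, proglucagon products and peptide YY to L cells, neurotensin to N cells, ghrelin to X cells, somatostatin to D cells, and substance P, a Tac1 product, to serotonin-making enterochromaffin cells, although single cells often make several of these. Chromogranin A (Chga) is a granule protein found in most of these cells and is widely used to mark them. In RNA from whole crypts, fewer cells of a type and less RNA per cell cannot be told apart.

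Neither Chga nor any hormone gene passed the test, and the lowest p-values belonged to Cck and Gcg. Of the 10 genes 0 passed limma's test after Benjamini-Hochberg adjustment over all 18108 probe sets at 0.05, and 2, Cck and Gcg, had an unadjusted p under 0.05, both lower in KO. Over all probe sets the calls numbered 2 after adjustment (0.011%), both lower in KO, and 655 at an unadjusted p under 0.05 (3.62%), of which 328 were lower in KO (1.81%). All 3 KO arrays lay below all 3 WT arrays for Cck and Gcg, 2 of 10 genes, where 4.03% of all probe sets did so. For 0 of the 10 genes did all KO arrays lie above all WT arrays, against 5.09% of all probe sets. The difference KO minus WT was below 0 in 8 of the 10 genes, beside 43.8% of the 9679 genes tested on their brightest probe set. The median difference was -0.32 on the log2 scale, beside 0.04 over those 9679 genes. Among lists described below, 9 of 10 epithelial (median -0.10), 7 of 9 granule, 6 of 9 lineage factor, 6 of 8 goblet and 5 of 6 Paneth genes tested were below 0. Fewer were so among peptide-inactivating enzyme genes (3 of 12), villus enterocyte markers (2 of 9), and stem and proliferation or leukocyte markers (1 of 8 each). With 3 mice a group, 0.1 is the smallest two-sided p of an exact permutation test.

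The arrays differed in other respects too, given here because single arrays set several values below. KO 2 carried acinar pancreas transcripts: Cpa1 (carboxypeptidase A) read 10.14 there and 2.06 to 2.09 on the other 5 arrays, Cel (bile salt-stimulated lipase) 9.69 against 2.50 to 2.53, and Cela1 (an elastase) 11.64 against 6.62 to 7.87. Of the 8 pancreatic markers listed, 4 were on the array, and their summed level on the log2 scale ran from 6.82 to 12.33 in KO and from 6.88 to 7.95 in WT. Pdx1, a transcription factor of the pancreas and proximal gut, read 7.50 on KO 2 and 2.62 to 2.76 on the other 5 arrays. Ada, an enterocyte gene of the proximal small intestine, read 11.25 on KO 1 and 10.28 on KO 2 and 6.88 to 7.74 on KO 3 and the WT arrays. Pdx1 and Ada were thus both high on KO 2, the lowest array for Nts, Pyy and Gcg. As a pancreas gene too, Pdx1 cannot be told apart here from the acinar transcripts, and it read 2.70 on KO 1. KO 2 was also the lowest for Chga and for Sct and Gip, hormones of the upper small intestine. Ada was also high on KO 1, which had the highest Nts value. The part of these markers in the hormone values was not tested. Cpa1, Cel, Pdx1 and Ada were named after their values were seen. The insulin gene Ins2, also named after its values were seen, read 2.11 on KO 2 and 2.11 to 2.13 on the other arrays. WT 3 had the largest gap between the 3' and 5' Gapdh control probe sets, a measure of RNA integrity and labelling, at 1.75 against 0.37 to 0.91 on the other arrays. Summed Y-linked signal was 10.40 on WT 1 and 10.57 on WT 2 but 4.32 to 4.45 on WT 3 and the 3 KO arrays, so WT 1 and WT 2 alone carried it. Sox9 itself read 2.42 to 2.75 in KO and 5.84 to 7.61 in WT on 1 of its 3 probe sets (difference -3.93, limma adjusted p = 0.188). Its other tested probe set averaged 5.81 ± 0.50 in KO against 4.76 ± 1.85 in WT (SD, n = 3 per group). There WT 3 stood lowest at 2.68, while WT 1 (6.23) and WT 2 (5.38) lay within the KO range of 5.33 to 6.34. The remaining probe set lay under the intensity filter. Which part of Sox9 was deleted relative to these probe sets is unstated, so the probe set with signal in KO checks nothing.

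**Figure D1:**
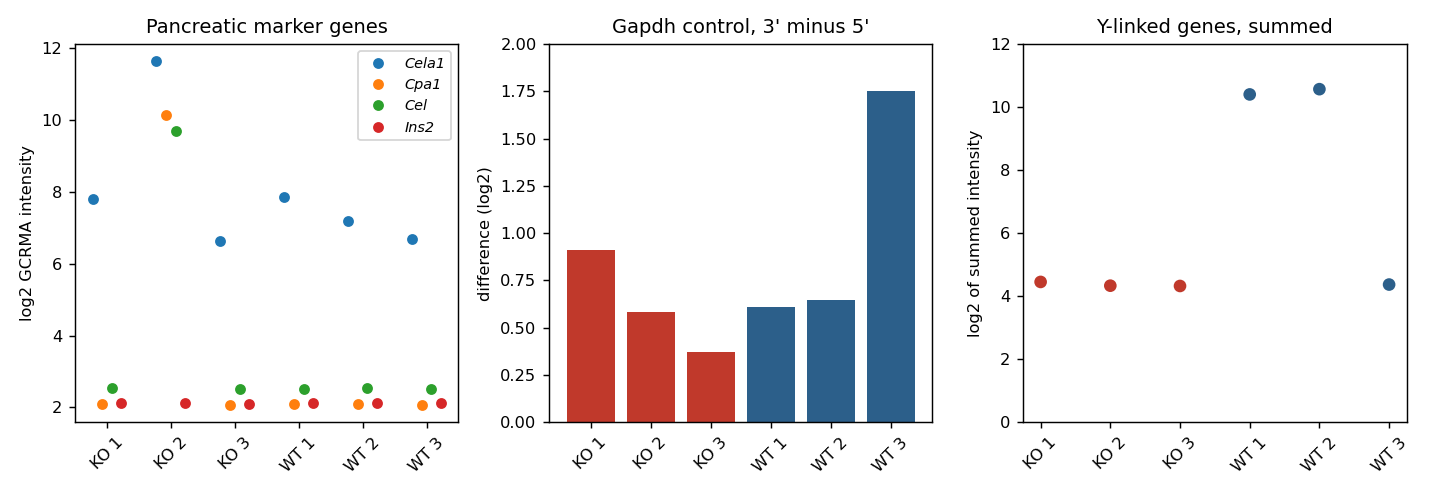
Other features of the 6 arrays (red, KO; blue, WT in the middle and right panels). Left, log2 intensity of 4 pancreatic marker genes, with Cela1, Cpa1 and Cel high on KO 2 and Ins2 near 2.1 on all arrays; middle, the 3' minus 5' difference of the Gapdh control probe sets, largest on WT 3 at 1.75; right, log2 summed intensity of Y-linked genes, above 10 on WT 1 and WT 2 and under 5 on the others.

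The crypt label was checked against marker genes. All 10 epithelial markers were above the filter, as were 8 of 8 stem and proliferation markers, 6 of 7 Paneth markers on the array, 8 of 8 goblet markers and 4 of 7 tuft markers. The 9 villus enterocyte markers on the array were above it too, so this check cannot tell crypt from villus epithelium. Enteric neurons, which also express Tac1, Sst and Cck, were represented by 13 markers on the array, and 0 of them passed the filter. Elavl4, Tubb3 and Prph, neuronal markers named after their values were seen, read at most 3.19 on any array, and the list's summed level ran from 6.30 to 6.38 in KO and 6.33 to 6.36 in WT. Enteric glia had 0 of 4 markers above the filter, and smooth muscle and fibroblasts had 1 of 11, Vim, which leukocytes express as well.

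Cholecystokinin (Cck) stimulates gallbladder contraction and the release of pancreatic enzymes. Its probe set read 9.13, 8.73 and 8.50 (KO 1 to KO 3) against 9.23, 9.65 and 9.60 (WT 1 to WT 3). All KO values lay below all WT values, with 0.11 between the highest KO array (KO 1) and the lowest WT array (WT 1). The means were 8.79 ± 0.32 in KO against 9.50 ± 0.23 in WT (SD, n = 3 per group). The difference was -0.71 ± 0.23 (SE), with a 95% interval of -1.27 to -0.15, a 1.64-fold lower intensity in KO. It did not pass over all probe sets (limma p = 0.0199, adjusted p = 0.999; exact permutation p = 0.1). It ran from -0.88 without KO 1 to -0.57 without KO 3, and without KO 2 and WT 3 it was -0.63.

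The proglucagon gene (Gcg) encodes the precursor of GLP-1 and GLP-2 in the gut and of glucagon in the pancreas. Its probe set read 9.55, 8.65 and 10.13 (KO 1 to KO 3) against 10.34, 10.53 and 10.74 (WT 1 to WT 3). The groups did not overlap, and KO 2 stood lowest by 0.90 from KO 1. The means were 9.45 ± 0.74 in KO against 10.54 ± 0.20 in WT (SD, n = 3 per group). The difference of -1.09 ± 0.38 (SE), 2.13-fold lower in KO, was the most negative of the 10 genes (95% interval -1.998 to -0.19). It too missed the adjusted threshold (limma p = 0.0251, adjusted p = 0.999; exact permutation p = 0.1). Without KO 2, the array with pancreatic transcripts, it was -0.70, and without KO 3 it was -1.43. Without both KO 2 and WT 3 it was -0.59. Gcg is also a pancreatic islet gene, and on KO 2 its level was the lowest of the 6 arrays.

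The stretches upstream of Cck and Gcg are printed because these genes were the 2 with no overlap between groups, and that of the somatostatin gene Sst because it had the most positive difference of the 10. Each is the 250 bases before the annotated start in RefSeq (GRCm38.p6), on the minus strand for all 3 genes, at chr9:121495695-121495944 for Cck, chr2:62483654-62483903 for Gcg and chr16:23890845-23891094 for Sst. Capitals mark E-boxes (CANNTG, the motif of basic helix-loop-helix factors such as Neurog3 and Neurod1) and the core of the cAMP response element (TGACG, or CGTCA where it lies on the other strand).
Cck: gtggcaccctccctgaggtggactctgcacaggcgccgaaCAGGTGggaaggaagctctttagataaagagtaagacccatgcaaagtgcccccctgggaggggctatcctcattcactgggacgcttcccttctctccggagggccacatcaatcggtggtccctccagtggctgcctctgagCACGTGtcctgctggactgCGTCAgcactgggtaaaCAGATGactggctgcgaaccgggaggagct
Gcg: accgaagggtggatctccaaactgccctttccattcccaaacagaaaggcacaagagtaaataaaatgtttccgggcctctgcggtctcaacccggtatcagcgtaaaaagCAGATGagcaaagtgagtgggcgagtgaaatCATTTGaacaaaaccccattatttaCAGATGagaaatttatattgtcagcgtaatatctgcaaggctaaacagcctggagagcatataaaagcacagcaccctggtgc
Sst: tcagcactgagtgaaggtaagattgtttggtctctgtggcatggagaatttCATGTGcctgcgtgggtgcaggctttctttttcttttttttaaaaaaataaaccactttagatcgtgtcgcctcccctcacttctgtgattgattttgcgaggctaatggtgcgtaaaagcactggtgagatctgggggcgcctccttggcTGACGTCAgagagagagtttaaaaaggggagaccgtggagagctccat
The Cck stretch held 3 E-boxes, beginning 210, 66 and 30 bases before the start, and CGTCA at 47. The Gcg stretch held 3 E-boxes, at 139, 108 and 83 bases, and no TGACG. In Sst, TGACG at 48 bases and CGTCA at 45 overlapped in TGACGTCA, the full cAMP response element for which this promoter is known, and a single E-box lay at 199. All 10 genes had a start in the RefSeq table, with 14 windows in all. Pyy and Ghrl had several windows that partly overlapped, and those of Pyy shared the same E-box. E-boxes were in 12 of these 14 windows and in 66.2% of 32817 windows of the same length. The cAMP core was in 5 of 14 and in 17.7% of all. A SOX-type core (ACAATG or ACAAAG, either strand) was in 1 of 14, that of Nts, where ACAAAG began 122 bases before the start, and in 25.2% of all. By gene, E-boxes were in 10 of 10, the cAMP core in 5 and the SOX-type core in 1. These matches describe letters in the windows only.

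Secretin (Sct), which drives bicarbonate secretion, and GIP (Gip), which enhances insulin release, come from the upper small intestine like Cck. Sct read 9.32, 7.87 and 8.45 (KO 1 to KO 3) against 8.10, 8.89 and 8.66 (WT 1 to WT 3). KO arrays held both the highest and the lowest Sct values, and the groups overlapped. The difference was 0.0017 with a 95% interval of -0.97 to 0.97 (limma adjusted p = 0.9999), and it ran from -0.39 without KO 1 to 0.34 without KO 2. Gip read 12.88, 11.96 and 12.31 in KO and 12.62, 12.95 and 12.88 in WT. KO 2 and KO 3 lay below all WT arrays, while KO 1 lay within their range. The Gip difference was -0.43 ± 0.27 (SE; 95% interval -1.08 to 0.22, limma adjusted p = 0.999; exact permutation p = 0.3), and -0.22 without KO 2.

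Peptide YY (Pyy), which slows gastric emptying, and neurotensin (Nts), a peptide released after fat intake, belong to the more distal gut and varied widely between mice. Pyy read 5.24, 4.10 and 6.27 (KO 1 to KO 3) against 5.11, 5.78 and 5.10 (WT 1 to WT 3). The KO arrays spanned a wider range than the WT arrays and enclosed them. Its difference was -0.12 (95% interval -1.42 to 1.17), turning to 0.43 without KO 2. Nts read 10.23, 6.53 and 9.96 in KO and 8.20, 10.01 and 9.36 in WT. KO 2 stood 3.44 below KO 3, the next KO array, and WT 1 was the next lowest. The Nts difference was -0.28 (95% interval -2.75 to 2.18) and 0.91 without KO 2, and neither gene passed (limma adjusted p = 0.999 for both).

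Ghrelin (Ghrl), the appetite-stimulating hormone made chiefly in the stomach, read 7.41, 7.62 and 7.08 in KO and 7.55, 7.78 and 7.90 in WT. Only KO 2 reached into the WT range, by 0.07. The difference was -0.37 ± 0.21 (SE; 95% interval -0.88 to 0.13, limma adjusted p = 0.999; exact permutation p = 0.2), and -0.50 without KO 2. Thus KO 2, the lowest array for Gcg, Gip and Nts, was the highest KO array for Ghrl.

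Somatostatin (Sst) restrains the release of other gut hormones. It read 9.73, 9.23 and 9.12 in KO and 8.65, 9.31 and 9.15 in WT. The groups overlapped, with KO 1 highest and WT 1 lowest. Its difference of 0.32 ± 0.26 (SE) was the most positive of the 10 genes (95% interval -0.30 to 0.95, limma adjusted p = 0.999; exact permutation p = 0.5), and stayed between 0.13 and 0.46 with each array left out.

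Tac1 encodes substance P and neurokinin A. Its tested probe set read 10.02, 9.91 and 10.07 in KO and 9.80, 10.24 and 10.65 in WT. All 3 KO arrays lay inside the WT range. The difference of -0.23 (95% interval -0.82 to 0.36, limma adjusted p = 0.999) was -0.02 without WT 3 and -0.45 without WT 1. The second Tac1 probe set, with all arrays between 2.88 and 3.14, lay under the filter and was not tested.

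Chga, the general granule marker, read 8.26, 8.10 and 8.65 (KO 1 to KO 3) against 8.21, 8.66 and 9.22 (WT 1 to WT 3). WT 1 lay among the KO arrays and WT 3 stood highest. The difference was -0.36 ± 0.30 (SE; 95% interval -1.08 to 0.37, limma adjusted p = 0.999; exact permutation p = 0.4). It was -0.09 without WT 3 and -0.60 without WT 1. Against WT 3 alone, the only control without Y-linked signal, the 3 KO arrays differed by -0.88 (limma adjusted p = 0.999, with the single WT array assumed to vary like the KO arrays), and without both KO 2 and WT 3 by 0.02.

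**Figure D2:**
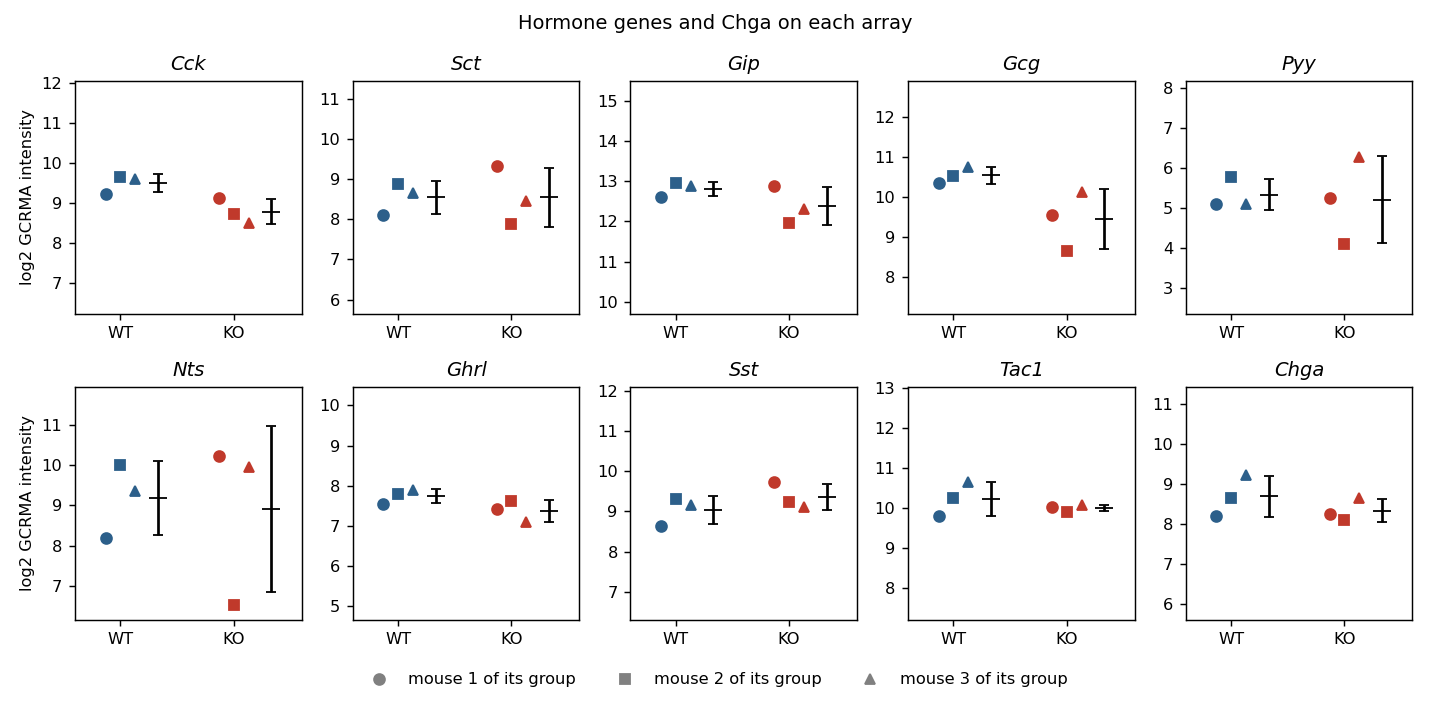
Log2 GCRMA intensity of each gene's tested probe set on each array, with WT in blue and KO in red, 1 symbol shape per mouse number, and the mean with SD (n = 3) in black. Every panel spans the same number of log2 units; Cck and Gcg are the genes whose groups do not overlap, and Nts and Pyy have the widest KO spread (SD 2.07 and 1.09).

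The extremes of these genes fell on few arrays. KO 2 was the lowest array for 6 of the 10 genes (Sct, Gip, Gcg, Pyy, Nts and Chga), KO 3 for Cck and Ghrl, and WT 1 for Sst and Tac1. WT 3 was the highest for 4 (Gcg, Ghrl, Tac1 and Chga), KO 1 for 3, WT 2 for 2 and KO 3 for 1. The median deviation of the 10 genes from their own means was -0.02, -0.53 and -0.06 (KO 1 to KO 3) against -0.23, 0.34 and 0.33 (WT 1 to WT 3). WT 1 thus lay below KO 1 and KO 3. Without KO 2 the difference was below 0 in 6 of 10 genes and the median was -0.20; without WT 3 these were 8 and -0.22. With both left out, an alternative chosen after the data were seen, they were 4 of 10 and 0.02. Among arrays without Y-linked signal (KO 1 to KO 3 and WT 3, also chosen after the data were seen) they were 8 of 10 and -0.51. Fitting all 6 arrays with a term for Y-linked signal gave Cck -0.80, Gcg -1.29 and Chga -0.88. As only WT 1 and WT 2 carried that signal, this fit in effect set KO against WT 3 alone. That comparison itself gave -0.81, -1.30 and -0.88, so the 2 are not separate evidence. A Gapdh 3' minus 5' term gave Cck -0.60, Gcg -1.04 and Chga -0.16. The part of the pancreatic transcripts on KO 2, of RNA integrity on WT 3 and of sex in these differences was not tested.

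**Figure D3:**
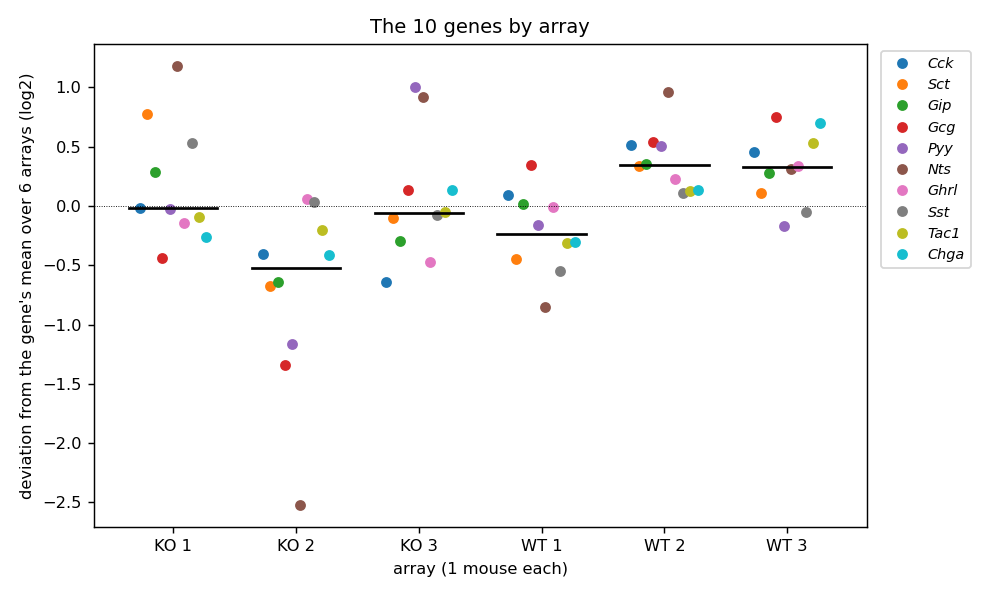
Deviation of each of the 10 genes from its own mean over the 6 arrays, in log2 units, by array; black bars are the median of the 10 genes. KO 2 has the lowest median (-0.53), WT 2 and WT 3 the highest (0.34 and 0.33), and WT 1 (-0.23) lies below KO 1 and KO 3.

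**Figure D4:**
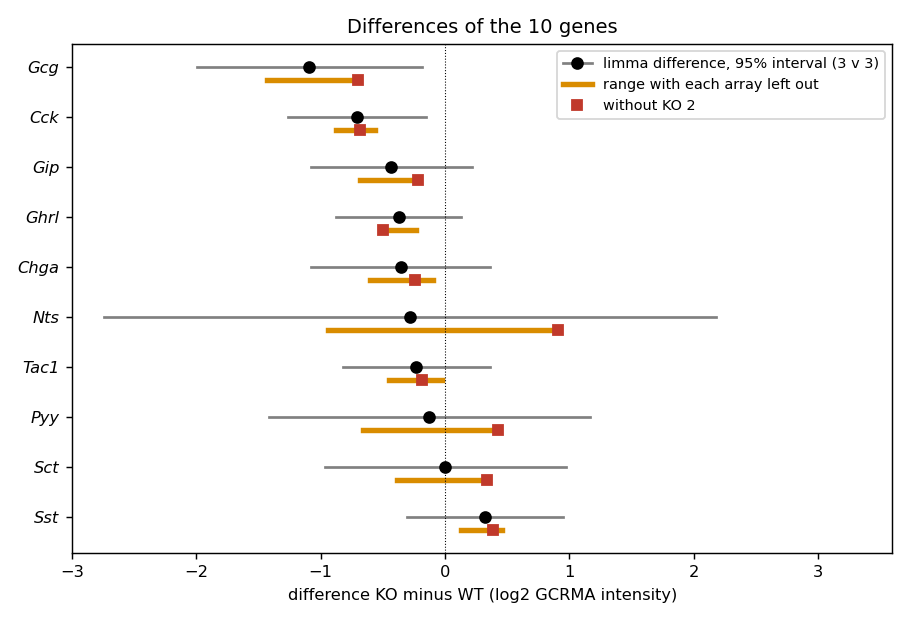
Difference KO minus WT for each gene in log2 units: black points with grey lines are the limma estimate and its 95% interval from 3 against 3 mice, orange bars the range over the 6 fits that leave out 1 array, and red squares the value without KO 2. The 95% intervals of Gcg and Cck, before any adjustment, end below 0; the other 8 include 0, and Nts, Pyy and Sct change sign when single arrays are left out.

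Setting each hormone against Chga on the same array gave the hormones' differences relative to this general marker. Gcg minus Chga read 1.29, 0.55 and 1.47 (KO 1 to KO 3) against 2.13, 1.87 and 1.52 (WT 1 to WT 3). All KO values lay below all WT values, with KO 3 and WT 3 close together, and the groups differed by -0.73 (exact two-sided permutation p = 0.1, the smallest possible). Cck minus Chga differed by -0.35 and overlapped between groups (exact two-sided permutation p = 0.5), as KO 3 (-0.15) and WT 3 (0.38) lay below KO 1 (0.87) and KO 2 (0.63). Sst minus Chga differed by 0.68 (exact permutation p = 0.2). The other 6 hormones differed by -0.08 to 0.36 on this scale, with overlapping groups.

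Profiles over the 6 arrays were compared by the root mean square difference of values centred on each gene's mean, a description over 6 arrays that share their mice. Among the 10 genes, Tac1 and Chga were closest (0.15 log2 units), followed by Cck and Gip (0.23) and Cck and Ghrl (0.25), and Nts and Ghrl were farthest apart (1.39). Of all tested genes, the closest to Chga were Pde5a (0.09), Fem1c (0.11) and Zdhhc9 (0.11), to Cck Cog4 (0.10), Cyth3 (0.17) and Eid1 (0.17), and to Gcg Sdc2 (0.15), Golm2 (0.16) and 5730455P16Rik (0.21). For Sct they were Ctss (0.11), Mettl7b (0.12) and Srrd (0.12).

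Genes that surround hormone production showed no calls. Of the other gut peptide and amine hormone genes listed, 16 were on the array and 4 were tested, with 0 past the adjusted limma threshold in either direction, 1 at an unadjusted p under 0.05 and a median difference of -0.21. That gene was Slc18a1, which loads serotonin into granules, with KO arrays at 5.70, 5.20 and 5.75 and WT arrays at 5.99, 6.12 and 6.37. Its difference was -0.61 with no overlap between groups (limma adjusted p = 0.999). Tph1, the rate-limiting enzyme of serotonin synthesis in these cells, averaged 6.19 ± 0.26 in KO against 6.17 ± 0.67 in WT (SD, n = 3 per group) and was named after its values were seen. The islet amyloid polypeptide gene Iapp differed by -0.43 and the decarboxylase gene Ddc by 0.08.

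Of 20 prohormone processing and granule genes on the array, 9 were tested, 0 passed limma after adjustment, 1 had an unadjusted p under 0.05, and the median difference was -0.12. Ptprn2, a granule membrane protein, read 7.40, 7.36 and 7.999 in KO and 8.53, 8.14 and 8.87 in WT. Its difference was -0.93 with no overlap, and it missed the test (unadjusted p = 0.0133 and adjusted p = 0.999 in limma across all probe sets). Pcsk1, the convertase that releases GLP-1 from proglucagon, differed by 0.47, and Cpe, which trims the peptides' ends, by -0.63. Like Chga, Cpe was lowest on KO 2 (7.41) and highest on WT 3 (9.03). Some other genes of these lists shared that low and some did not. Ptprn2 (7.36), Slc18a1 (5.20) and the lineage factors Isl1 (4.33) and Insm1 (5.89) were also lowest on KO 2 and highest on WT 3. Chgb, Scg3 and Neurod1 were not lowest there, although Neurod1 was lower on KO 2 (6.64) than on KO 1 and KO 3. Chgb, a related granule gene, differed by 0.02 and read 12.15 on KO 2, its highest KO array. Scg3 differed by -0.26 and the lineage factor Neurod1 by -0.17. Chgb, Scg3 and Neurod1 were all lowest on WT 1 and, like Insm1, were named after their values were seen.

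Of 18 lineage factor genes on the array, 9 were tested, with 0 past limma after adjustment and 0 at an unadjusted p under 0.05 (median difference -0.17). Isl1 read 5.14, 4.33 and 5.19 in KO and 5.24, 5.21 and 5.95 in WT (difference -0.58), and Nkx2-2 read 5.21, 5.43 and 5.44 in KO and 5.45, 5.45 and 6.64 in WT (difference -0.49). Both had all KO arrays below all WT arrays, by 0.02 and 0.01, and neither passed (limma adjusted p = 0.999). Mnx1, a homeobox gene, differed by 1.03 with overlapping groups. The progenitor factor Neurog3, named after its values were seen, averaged 6.91 ± 0.09 in KO against 6.56 ± 0.86 in WT (SD, n = 3 per group), where WT 2 stood at 5.59.

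Genes for sensing and for the fate of the hormones gave 0 calls as well. Of 14 nutrient sensing genes on the array 4 were tested, 0 at an unadjusted p under 0.05 in limma, with a median difference of 0.0035. Of 21 hormone receptor genes on the array 20 lay under the filter. The remaining one, Sort1, a neurotensin-binding sorting receptor with wider roles, differed by -0.25. All 12 peptide-inactivating enzyme genes on the array were tested, again with 0 at an unadjusted p under 0.05 and a median of 0.11. Dpp4, which inactivates GLP-1 and GIP, was named after its values were seen and averaged 12.41 ± 0.64 in KO against 12.40 ± 0.56 in WT (SD, n = 3 per group). Thop1 differed by 0.52, Enpep by -0.39 and Tpp2 by 0.18.

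**Figure D5:**
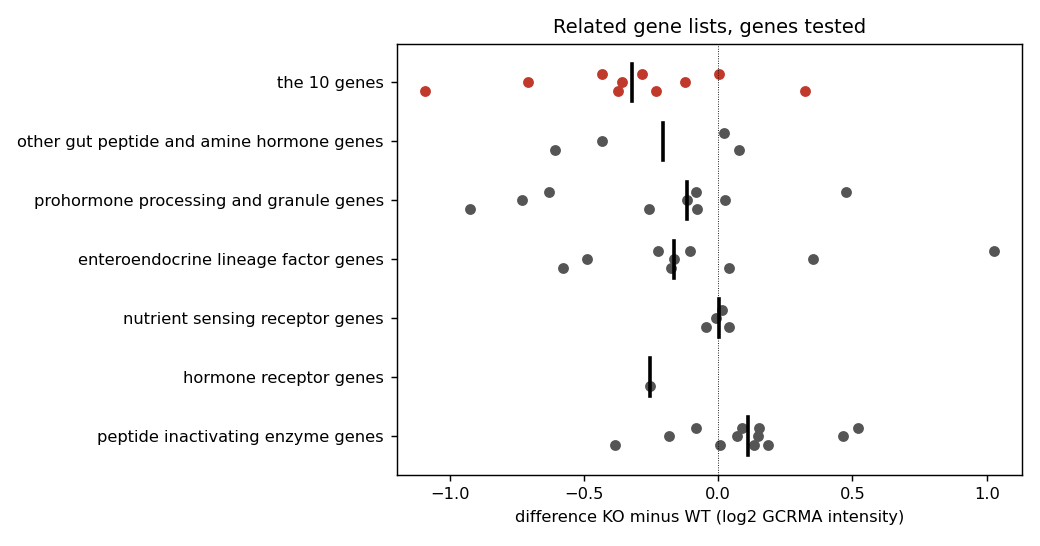
Difference KO minus WT in log2 units of the 10 genes (red) and of the tested genes of 6 related lists (grey), each on its brightest probe set; black bars are medians and vertical scatter within a row has no meaning. The median is -0.32 for the 10 genes, -0.21, -0.12 and -0.17 for other hormone, granule and lineage factor genes, and 0.11 for peptide-inactivating enzymes.

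Markers of neighbouring cell types were read beside the hormone genes, and their part in the hormone values was not tested. Of the 6 Paneth markers tested, 0 passed the adjusted limma threshold and 4 had an unadjusted p under 0.05, all lower in KO, with the summed level at 16.75 to 17.19 in KO and 17.38 to 17.70 in WT. Mmp7 differed by -4.71, Lyz1 by -0.75 and Itln1 by -0.58. Of the 4 tuft markers tested, 0 passed after adjustment and 1, Dclk1, had an unadjusted p under 0.05, with KO arrays at 4.79 to 4.82 and WT arrays at 6.24 to 6.94 (difference -1.68, limma adjusted p = 0.231); the summed level was 8.64 to 9.83 in KO and 8.99 to 9.68 in WT. Goblet markers, also of the secretory lineage, had 0 of 8 at an unadjusted p under 0.05, with a summed level of 17.72 to 17.91 in KO and 17.82 to 17.93 in WT. Of 9 villus enterocyte markers 0 passed after adjustment and 3 had an unadjusted p under 0.05, all higher in KO (Treh 0.77, Apoa4 0.82 and Alpi 0.95), with a summed level of 17.86 to 18.07 in KO and 17.55 to 17.93 in WT. Ada had the largest difference of that list, 2.10, with KO 3 below all WT arrays. Of 8 stem and proliferation markers 0 had an unadjusted p under 0.05, while for Ascl2 (0.97) and Mcm2 (0.59) every KO array exceeded every WT array; the summed level was 15.37 to 15.58 in KO and 15.19 to 15.76 in WT. Leukocyte markers were above the filter for 8 of 9 genes on the array, and their summed level ran from 13.45 to 14.63 in KO and 14.04 to 14.59 in WT. That sum is weighted to the bright gene Lyz2, which read lower in KO (-1.13); the other 7 tested markers had positive differences, with Jchain at 2.54, Ptprc at 1.38 and all its KO arrays above all WT arrays, and Cd3g (named after its values were seen) at 1.21. The list's median was 0.94, and 0 of the 8 passed limma after adjustment, with 1, Lyz2, at an unadjusted p under 0.05.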

How the data were processed

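Total RNA of each of the 6 mice was measured on a single-colour array. The deposited values are log2 intensities that the authors obtained by GCRMA (sequence-based background correction, normalization across arrays and 1 summary per probe set) per the submitters' processing notes, which name limma too and give no version. In GCRMA values, dim probe sets sit close to a floor with little spread. Column medians were 2.91 to 2.99, and 0 columns belonged to other samples. Array controls (64 of 45101 probe sets) were left out. The 18108 probe sets whose mean over all arrays reached 4 entered limma (version 3.58.1, under R 4.3.3; lmFit, then eBayes on KO against WT, two-sided), with Benjamini-Hochberg adjustment over all of them and a threshold of 0.05. The limma intervals are at 95% and unadjusted. Replicates are mice, and with 3 per group their number limits the precision. The fit was tested on simulated data.

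The genes and lists were chosen with earlier results of these data known. Each list gene was represented by its brightest probe set, and up to 3 genes of smallest p were named per list; for Cck, Gcg, Sct and Chga the 3 genes of closest profile were named. Genes named otherwise are marked as chosen after their values were seen. The Y-linked sum takes the brightest probe sets of Eif2s3y, Kdm5d, Uty and Ddx3y. Alternatives were a replicate block, other filters, quantile and median scaling, a trended robust prior, array weights, other summaries of probe sets, Gapdh and Y-linked terms and each array left out, with 2 array subsets added after the data were seen.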

Additional observations from a re-analysis of the deposited data

How the results depend on the processing

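Each of the 10 genes missed the adjusted limma threshold under every alternative in which it was tested (Pyy was not tested with a filter at a mean of 6, which it did not reach), with 0.488 (Cck, array weights) the lowest adjusted p, and 0 genes of the related lists passed under any of them. Cck, Gcg, Gip, Ghrl and Sst kept their direction throughout. Sct turned to -0.0445 under quantile normalization, -0.0337 under median centring, -0.30 with array weights, -0.082 with a Y-linked term and -0.11 among arrays without Y-linked signal (-0.39 to 0.34 with single arrays left out). Pyy turned to 0.11 with a Y-linked term, 0.10 among arrays without Y-linked signal and 0.31 without KO 2 and WT 3 (-0.66 to 0.43 with single arrays left out). The Y-linked term and the arrays without Y-linked signal both in effect set KO against WT 3. Without KO 2 and WT 3, Nts was 0.99 (-0.94 to 0.91 with single arrays left out), Tac1 0.0218 and Chga 0.0232, 4 of 10 genes were below 0 and their median was 0.0225. With single arrays left out, 6 to 9 of 10 genes were below 0 and the median was -0.50 to -0.20.

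Calls over all probe sets numbered 0 with no filter, with a Gapdh or Y-linked term and among arrays without Y-linked signal, 1 with a filter at a mean of 6, 4 under quantile normalization, 4 under median centring, 11 with array weights, and 0 to 16 with single arrays left out (16 without WT 3, 0 without WT 1 or WT 2). With the replicate number as a block there were 0 calls. Of the 6 arrays 0 deviated most like the array of their own number. With 3 mice a group and single arrays that stand apart, this cannot tell whether the numbers pair mice by litter. Non-overlapping groups were seen for 5.14% of probe sets with no filter, in 15.9 to 24.1% with single arrays left out, in 26.4% without KO 2 and WT 3 and in 49.4% among arrays without Y-linked signal, where fewer arrays leave fewer orders. The cause of the other shifts was not tested.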

Other observations

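Immune transcripts differed widely between single mice. Jchain, which joins the chains of secreted IgA, read 13.998, 11.49 and 10.25 (KO 1 to KO 3) against 6.33, 10.70 and 11.07 (WT 1 to WT 3), and the leukocyte gene Ptprc read 5.73 on WT 1 and 8.50 to 9.53 on the other arrays. WT 1, the control with the lowest Sst and Tac1 values, thus carried the least of both. Lyz2, a lysozyme gene of macrophages closely related to the Paneth cell gene Lyz1, averaged 13.01 ± 0.16 in KO against 14.15 ± 0.24 in WT (SD, n = 3 per group), a difference of -1.13 with no overlap that missed the threshold over all probe sets (limma adjusted p = 0.443). Whether Lyz1 transcripts contribute to the Lyz2 probe set was not tested.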
